A study of Mus musculus with 21 samples.

Results

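Lysosomal cathepsins and their secreted inhibitor cystatin C were followed in mouse lung after bleomycin. The 9 genes were Ctsb, Ctsd, Ctsk, Ctss, Ctsl, Ctsh, Ctsz, Ctsc and Cst3, taken by name out of 12393 genes that the array annotation names singly. They were measured by 14 of the 22626 probe sets on each array, 4 for Ctsb, 3 for Ctsz and 1 for each other gene, and all 14 passed the filter on dim probe sets. Where a gene had several probe sets, the brightest stands for it unless another is named.

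Mice of the inbred strains A/J, C3H/HeJ and C57BL/6 were compared on 21 Affymetrix arrays, each holding total RNA from the right lungs of a pool of 3 to 5 mice. Bleomycin, a cancer drug that cuts DNA and is used to cause lung fibrosis in mice, was delivered by osmotic minipump at 100 mg/kg in males and 125 mg/kg in females. A/J at 3 weeks also had 1 pool of males given 80 mg/kg and 1 of females given 100 mg/kg. A/J had 2 control pools, 4 at 3 weeks and 2 at 6 weeks, and C3H/HeJ had 2 pools at each of these stages. C57BL/6 had 2 control pools, 2 at 3 weeks, 1 female pool at 6 weeks and 2 pools of moribund mice, at a time that the labels do not state. Each group of 2 held 1 male and 1 female pool, and values below are given male first. The labels used here do not say what the controls received or how old the mice were. Pools of different mice were the replicates, and no pools shared strain, stage, sex and dose. Errors and p-values rest on the spread left by a fit with terms for group and sex, shared over all groups. Any effect of dose, or of sex that differs between groups, can be part of that spread.

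Cathepsins are proteases of the lysosome. They are made as inactive precursors, carried there largely by mannose 6-phosphate receptors, and activated by cleavage in the acid interior. Cathepsin D is an aspartic protease, and cathepsins B, K, S, L, H, Z and C are cysteine proteases of the papain family, which cystatin C inhibits outside cells. In the lung, macrophages are rich in several of them, and cathepsin H takes part in the maturation of surfactant protein B in type 2 alveolar cells.

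Median deposited intensity of the arrays ran from 58.6 to 111, and correlations between arrays ran from 0.879 to 0.978. The A/J arrays at 3 weeks had medians of 58.6 to 80.2 against 82.8 and 89.8 in the controls, so these 4 arrays were dimmer than the A/J controls before normalization. Signal of the 3′ over that of the 5′ control probe set for Gapdh, a ratio that rises as RNA degrades, was 0.771 to 1.34 on 20 arrays and 2.07 on the C3H/HeJ female array at 6 weeks. Of the 9 type 2 alveolar markers on the array none was at 0 on all arrays of any group. Their summed normalized intensity ran from 25302 to 36663. Values below are quantile normalized intensity on a linear scale, and differences are log2 differences of that value plus 16, with the standard error (SE) of a limma fit. A gene is said to rise or fall only at a Benjamini-Hochberg adjusted p under 0.05 over the 15084 probe sets tested.

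At 3 weeks 8 of the 9 genes rose in C57BL/6, where 6.49% of the 9079 genes tested rose. In C3H/HeJ 5 rose (Ctsb, Ctsd, Ctsk, Ctsl and Ctsz; 1.39% of all genes), and in A/J 3 rose (Ctsb, Ctsd and Ctsk; 0.760% of all genes). None fell. The median difference of the 9 genes was 0.97 in C57BL/6, 0.65 in C3H/HeJ and 0.42 in A/J, against 0.01, -0.03 and -0.01 for all genes tested. For all 8 cathepsins, every 3 week pool lay above both control pools of its strain in each of the 3 strains, which 31.1%, 21.1% and 10.5% of all genes did in C57BL/6, C3H/HeJ and A/J. In the mean of the 3 strains all 8 cathepsins rose, where 7.26% of genes did, with a median of 0.66 for the 9 genes, and Cst3 did not pass the test.

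These counts depended on the level the arrays were brought to and on single control pools. On the deposited scale, where the median of all genes itself shifted by -0.16 in C57BL/6, -0.32 in C3H/HeJ and -0.35 in A/J, the counts were 4, 0 and 0, with medians of 0.88, 0.21 and 0.08 for the 9 genes. Without the C57BL/6 female control the C57BL/6 count was 5. Without the A/J male or female control the A/J count was 0 or 1, and without the C3H/HeJ male control, female control or male 3 week pool the C3H/HeJ count was 1, 3 or 3.

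**Figure D1:**
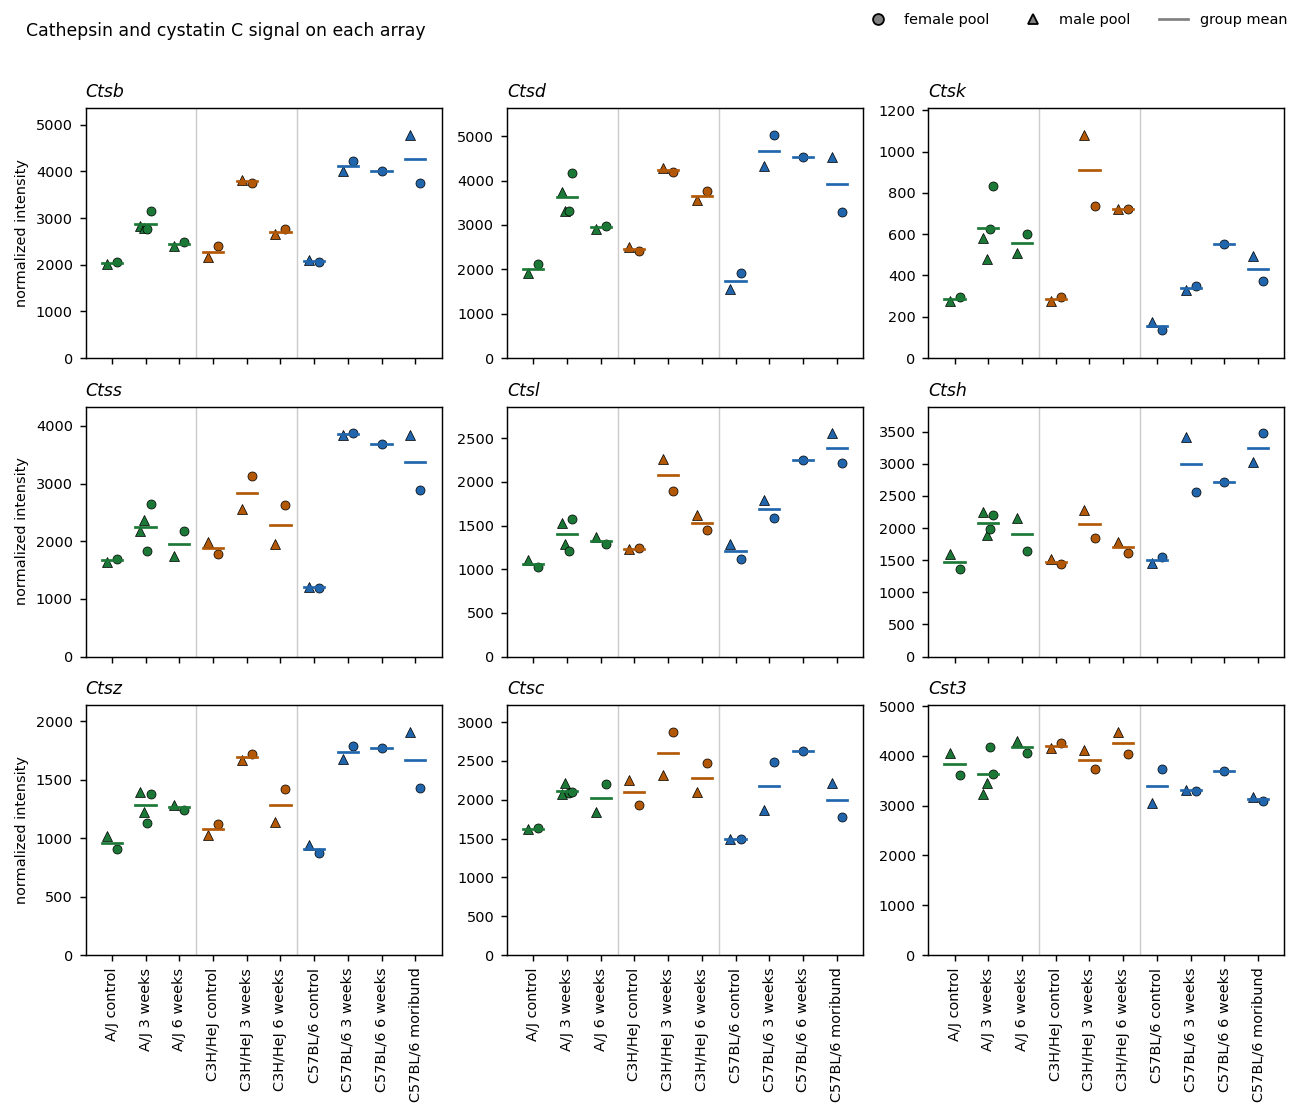
Normalized intensity (vertical axis, linear, from 0) of the brightest probe set of each gene on every array, by strain and stage; circles are female pools, triangles male pools and lines group means. Ctss stands at 3844 and 3870 in the C57BL/6 pools at 3 weeks over controls of 1204 and 1192, while Cst3 keeps between 3061 and 4483 on all 21 arrays.

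Cathepsin D cleaves proteins in the acid lysosome and takes part in activating other cathepsins. In C57BL/6 its intensity was 1557 and 1906 in the controls and 4320 and 5031 at 3 weeks. The A/J values were 1915 and 2118 in controls and 3742, 3317, 3317 and 4171 at 3 weeks, and those of C3H/HeJ were 2506 and 2414 against 4283 and 4197. In each strain the lowest 3 week pool was above the highest control, as in 31.1% (C57BL/6), 21.1% (C3H/HeJ) and 10.5% (A/J) of all genes. Ctsd rose by 1.43 (SE 0.14, adjusted p = 1.2e-05) in C57BL/6, a 2.69-fold change, by 0.84 (SE 0.12, adjusted p = 0.00195) in A/J and by 0.78 (SE 0.14, adjusted p = 0.00887) in C3H/HeJ. The C3H/HeJ call passed in 12 of 17 alternative fits, with adjusted p from 0.00572 to 0.479.

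Because Ctsd and several relatives moved together, the RefSeq promoters (build GRCm38.p6, 250 bases before the start, both strands) were searched for CACGTG, the E-box bound by the lysosomal regulators TFEB and MITF among many factors. The promoter table held 7 of the 9 genes. CACGTG occurred in 6.02% of 32851 promoters and in 2 of the 7, Ctsd and Ctsl. The longer TCACGTGA, which overlaps the second Ctsd match, occurred in 0.785% of promoters and in Ctsd alone of the 7. The core of interferon response elements, GAAA repeated after 2 bases of any kind, occurred in 2.98% of promoters and in Ctss, and TGANTCA, the AP-1 core, in 6.75% and in none of the 7. The stretches that hold the matches are shown 5′ to 3′ on the gene's strand, with the matching letters in capitals. The Ctsd stretch is chr7:142387895-142388077 (minus strand), with matches starting 245 and 98 bases before the start. The Ctsl stretch is chr13:64370726-64370770 (minus strand, match at 236 bases), and the Ctss stretch is chr3:95526740-95526785 (plus strand, match at 21 bases). The motifs were chosen with results known, and a match describes these letters only.
Ctsd: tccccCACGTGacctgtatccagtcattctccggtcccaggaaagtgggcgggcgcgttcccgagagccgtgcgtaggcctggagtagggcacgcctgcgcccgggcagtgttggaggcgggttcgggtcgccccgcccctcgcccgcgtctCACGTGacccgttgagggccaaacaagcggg
Ctsl: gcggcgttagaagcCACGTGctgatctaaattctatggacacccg
Ctss: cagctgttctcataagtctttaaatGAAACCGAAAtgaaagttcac

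Cathepsin B, both an endopeptidase and a peptidase that trims dipeptides from carboxyl ends, is among the most abundant lysosomal proteases. In C57BL/6 the controls held 2106 and 2069 and the 3 week pools 4015 and 4217. The C3H/HeJ controls held 2163 and 2393 against 3820 and 3755, and the A/J controls 2026 and 2059 against 2836, 2779, 2757 and 3151. The control pools of the 3 strains lay within a narrow band, and no 3 week pool of any strain fell into it. The share of all genes with this pattern was not computed. Ctsb rose by 0.97 (SE 0.11, adjusted p = 2.3e-05) in C57BL/6, 0.73 (SE 0.11, adjusted p = 0.00177) in C3H/HeJ and 0.49 (SE 0.09, adjusted p = 0.0169) in A/J. The A/J call passed in 12 of 19 alternative fits, with adjusted p from 0.00265 to 0.651. All 4 Ctsb probe sets rose in C57BL/6, by 0.77 to 1.36. In A/J and C3H/HeJ only the brightest passed the test, and the other 3 differed by 0.27 to 0.57 and by 0.25 to 0.71. Correlations of the 4 probe sets over the 21 arrays were 0.62 to 0.93.

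Cathepsin L, a broad endopeptidase, gave 1293 and 1120 in C57BL/6 controls and 1796 and 1586 at 3 weeks. In C3H/HeJ the controls gave 1231 and 1239 and the 3 week pools 2258 and 1892. The A/J controls gave 1108 and 1022 and the 3 week pools 1528, 1291, 1210 and 1573. The C3H/HeJ pools at 3 weeks were the highest of the 3 strains at that stage. Ctsl rose by 0.74 (SE 0.13, adjusted p = 0.00533) in C3H/HeJ and 0.48 (SE 0.13, adjusted p = 0.0198) in C57BL/6. The C57BL/6 call passed in 11 of 17 alternative fits (adjusted p from 0.00393 to 0.564) and in none of those that left out 1 of the 4 pools. The A/J difference of Ctsl, 0.38 (SE 0.11, adjusted p = 0.154), did not pass.

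Cathepsin K is the collagen-degrading cathepsin best known from osteoclasts and is also made by fibroblasts and macrophages. Its C3H/HeJ controls read 274 and 297 and its 3 week pools 1081 and 738. In A/J the controls read 277 and 297 and the 3 week pools 581, 481, 624 and 835. In C57BL/6 the controls, at 176 and 134, were below those of both other strains, and the 3 week pools read 329 and 351. The C57BL/6 3 week pools were thus only a little above the control level of the other strains, although the log2 change within the strain was close to that in A/J. Ctsk rose by 1.60 (SE 0.23, adjusted p = 0.00135) in C3H/HeJ, a 3.02-fold change, by 1.07 (SE 0.23, adjusted p = 0.00569) in C57BL/6 and by 1.06 (SE 0.20, adjusted p = 0.0134) in A/J. These calls passed in 16 of 17 alternative fits in C3H/HeJ, 15 of 17 in C57BL/6 and 15 of 19 in A/J. On the deposited scale none of the 3 passed the limma test (adjusted p = 0.131, 0.166 and 0.3). Over the 3 strains the mean Ctsk rise of 1.24 (SE 0.13, adjusted p = 5.4e-06) was the largest among the 9 genes.

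Cathepsin S trims the invariant chain of MHC class II molecules in antigen-presenting cells and stays active at neutral pH. In C57BL/6 the controls read 1204 and 1192 and the 3 week pools 3844 and 3870. The A/J controls read 1646 and 1687 and the 3 week pools 2182, 2368, 1827 and 2638, and the C3H/HeJ controls read 1987 and 1774 against 2552 and 3124. Both C57BL/6 controls were below every control of the other strains, as for Ctsk, by differences that did not pass. Of all genes, 34.6% had both C57BL/6 controls below both of A/J and 31.4% below both of C3H/HeJ. Both C57BL/6 3 week pools were above every 3 week pool of the others, a pattern whose share of all genes was not computed. Ctss rose by 1.67 (SE 0.18, adjusted p = 1.9e-05) in C57BL/6, a 3.19-fold change. Its differences of 0.58 (SE 0.18, adjusted p = 0.12) in C3H/HeJ and 0.42 (SE 0.15, adjusted p = 0.341) in A/J did not pass. Ctsk and Ctss are neighbours on chromosome 3, with 1 long non-coding RNA gene, Gm40096, annotated between them.

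Ctsh, Ctsz and Ctsc encode exopeptidases, which trim protein ends. Cathepsin H is an aminopeptidase, cathepsin Z removes single residues from the carboxyl end, and cathepsin C activates the serine proteases of neutrophils and mast cells. Ctsh read 1461 and 1546 in C57BL/6 controls and 3422 and 2566 at 3 weeks, and rose there by 0.97 (SE 0.15, adjusted p = 3.8e-04). In the other strains Ctsh read 1366 to 1590 in the controls and 1844 to 2287 at 3 weeks, and its differences of 0.49 (SE 0.13, adjusted p = 0.105) in A/J and 0.47 (SE 0.15, adjusted p = 0.121) in C3H/HeJ did not pass. The 3 week pools stood above the controls in each strain, as in 31.1% (C57BL/6), 21.1% (C3H/HeJ) and 10.5% (A/J) of all genes.

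Ctsz read 939 and 871 in C57BL/6 controls against 1680 and 1787 at 3 weeks, and 1030 and 1124 in C3H/HeJ controls against 1668 and 1719. It rose by 0.93 (SE 0.15, adjusted p = 6.9e-04) and 0.65 (SE 0.15, adjusted p = 0.0351) in these strains, and differed by 0.40 (SE 0.13, adjusted p = 0.234) in A/J. The C3H/HeJ call passed in 9 of 17 alternative fits (adjusted p from 0.0244 to 0.746) and in none of those that left out 1 of the 4 pools. The 3 Ctsz probe sets did not give 1 answer. All 3 rose in C57BL/6, while in A/J only 1417870_x_at rose, by 0.56 (SE 0.12, adjusted p = 0.0414), and in C3H/HeJ 1417869_s_at differed by 0.09 (SE 0.21). The suffixes _x_at and _s_at mark probe sets that the maker expects to match more than 1 transcript.

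Ctsc moved least among the cathepsins in the mean of the strains, by 0.40 (SE 0.08, adjusted p = 0.00345). It read 1492 and 1498 in C57BL/6 controls and 1869 and 2486 at 3 weeks, a rise of 0.52 (SE 0.15, adjusted p = 0.0305). This call passed in 9 of 17 alternative fits, with adjusted p from 0.00707 to 0.529. In C3H/HeJ the controls already read 2254 and 1937, and the 3 week pools 2322 and 2875. The differences of 0.37 (SE 0.13, adjusted p = 0.282) in A/J and 0.30 (SE 0.15, adjusted p = 0.346) in C3H/HeJ did not pass.

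Cystatin C, encoded by Cst3, is the main cystatin outside cells. Its intensity was 4068 and 3607 in A/J controls against 3243, 3462, 4171 and 3632 at 3 weeks. In C57BL/6 it was 3061 and 3733 against 3317 and 3299, and in C3H/HeJ 4151 and 4255 against 4118 and 3733. Treated and control pools overlapped in A/J and C57BL/6, and in C3H/HeJ both treated pools were just below the controls, as 26.7% of genes were. The differences were -0.08 (95% interval -0.30 to 0.13), -0.03 (-0.28 to 0.22) and -0.10 (-0.35 to 0.15), and none passed the test. The interval of the 3 strain mean, -0.21 to 0.07, does not include a change of the size seen for any cathepsin. Scaling to 1 median gave 0.10 in C57BL/6, and on the deposited scale the 3 strain mean of -0.35 passed the test (adjusted p = 0.042) beside a shift of -0.27 in the median of all genes. The probe set lay above 99.3% of all probe sets on every array, a range in which quantile normalization can hide a change.

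**Figure D2:**
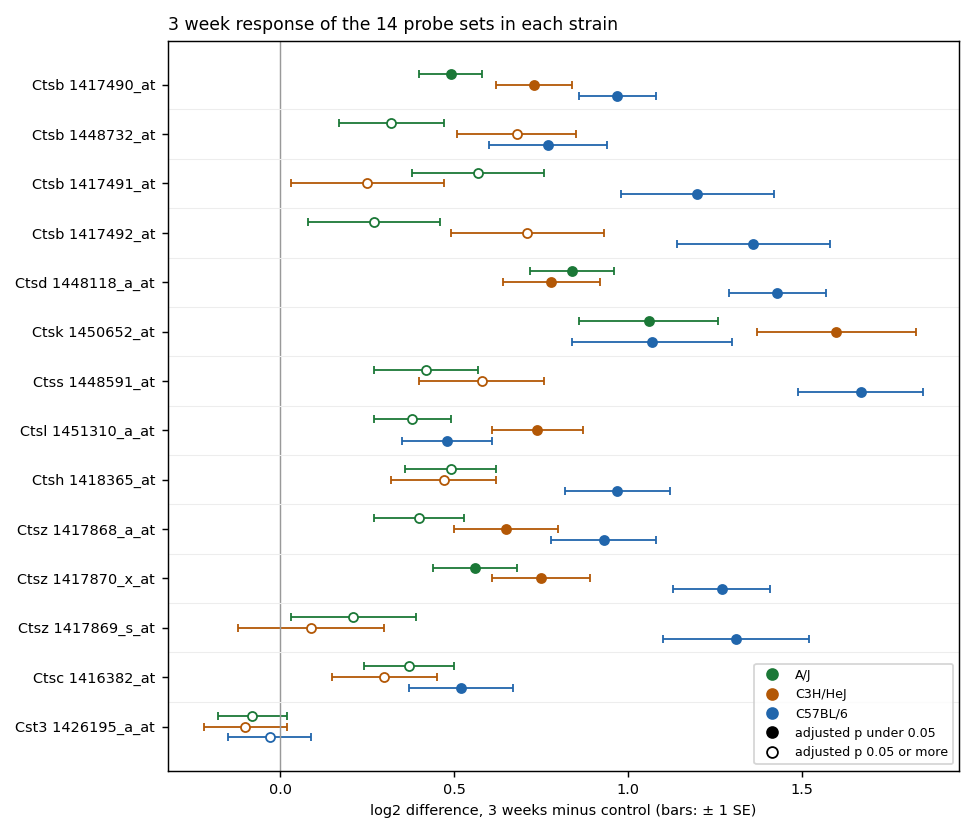
Log2 difference between 3 week and control pools (horizontal axis, bars ± 1 SE of the limma fit) for each of the 14 probe sets in each strain, with filled points at an adjusted p under 0.05. In C57BL/6 13 of 14 points are filled, in C3H/HeJ 6 and in A/J 4, and the Cst3 points lie at -0.10 to -0.03.

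In moribund C57BL/6 mice 7 of the 9 genes rose over control, where 6.41% of all genes tested rose. Their median difference was 1.02, against 0.00 for all genes. The cysteine proteases and Ctsd again rose together, apart from Ctsc. The largest rise was Ctss, at 3844 and 2896, by 1.47 (SE 0.18, adjusted p = 5.5e-05), followed by Ctsk, at 492 and 372, by 1.39 (SE 0.23, adjusted p = 7.1e-04). Ctsd, at 4538 and 3299, rose by 1.16 (SE 0.14, adjusted p = 6.5e-05), and Ctsh, at 3020 and 3473, by 1.10 (SE 0.15, adjusted p = 1.0e-04). Both moribund pools lay above both controls for all 8 cathepsins, as for 27.3% of all genes. Ctsb, at 4784 and 3755, rose by 1.02 (SE 0.11, adjusted p = 1.6e-05), Ctsl by 0.98 (SE 0.13, adjusted p = 8.6e-05) and Ctsz, at 1908 and 1427, by 0.86 (SE 0.15, adjusted p = 0.00111). Ctsc, at 2216 and 1781, differed by 0.41 (SE 0.15, adjusted p = 0.0827) and Cst3, at 3179 and 3088, by -0.11 (SE 0.12, adjusted p = 0.61). On the deposited scale 4 of the 9 genes passed.

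Moribund and 3 week pools of C57BL/6 were not told apart by the limma fit for any of the 9 genes, nor for any of the 9079 genes represented by their brightest probe set (0%; 828 at an unadjusted p under 0.05). Of the 9, Ctsl alone had an unadjusted p under 0.05. It stood at 2556 and 2220 in moribund pools against 1796 and 1586 at 3 weeks, a difference of 0.49 (95% interval 0.23 to 0.76, adjusted p = 0.241). Both moribund pools lay above both 3 week pools for Ctsl and Ctsk, as for 17.4% of all genes, and below them for Cst3, as for 20.6%. Ctsd and Ctss pointed the other way, at -0.27 (-0.57 to 0.04) and -0.21 (-0.59 to 0.17), with overlapping pools.

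At 6 weeks Ctsk was the 1 gene of the 9 that rose in C3H/HeJ, where 0.110% of all genes did, and in A/J none passed (0.0991% of all genes rose). Ctsk read 722 and 724 in C3H/HeJ and 508 and 603 in A/J at 6 weeks, above the controls of 274 and 297 and of 277 and 297. The C3H/HeJ rise was 1.30 (SE 0.23, adjusted p = 0.0428), and it passed in 6 of 17 alternative fits, in none of those that left out 1 of the 4 pools. The A/J difference was 0.91 (SE 0.23, adjusted p = 0.304).

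Ctsd at 6 weeks read 3572 and 3755 in C3H/HeJ and 2912 and 2984 in A/J, also above every control of its strain. Its differences were 0.57 (SE 0.14, adjusted p = 0.529) and 0.55 (SE 0.14, adjusted p = 0.336). At an unadjusted p under 0.05 by limma, 6 of the 9 genes differed from control in A/J and 4 in C3H/HeJ. Of the 9079 genes 459 and 394 did. All 8 cathepsins lay above both controls in A/J at 6 weeks (19.3% of all genes did), and 6 did in C3H/HeJ (21.4%). Medians of the 9 genes were 0.31 and 0.25, against -0.00 and 0.02 for all genes.

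From 3 to 6 weeks none of the 9 genes passed the limma test in A/J (0.0220% of all genes were called) or C3H/HeJ (0.0991%). In these strains 2 and 3 of the 9 had an unadjusted p under 0.05, as did 409 and 1187 of the 9079 genes. In C3H/HeJ Ctsb went from 3820 and 3755 to 2650 and 2770, a difference of -0.48 (SE 0.11, adjusted p = 0.103). Ctsl differed by -0.43 (SE 0.13, adjusted p = 0.169) and Ctsz by -0.41 (SE 0.15, adjusted p = 0.234). In A/J Ctsb differed by -0.24 (SE 0.09) and Ctsd by -0.29 (SE 0.12). All 8 cathepsins had values below 0 in both strains in this comparison. Medians of the 9 genes were -0.14 in A/J and -0.30 in C3H/HeJ, against 0.01 and 0.05 for all genes. On the deposited scale 5 of the 8 were above 0 in C3H/HeJ and 3 in A/J, so these signs depended on the scaling.

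The single C57BL/6 pool at 6 weeks, from females, allows no test and is set beside the female control. It read 3688 for Ctss against 1192, 551 for Ctsk against 134, and 4538 for Ctsd against 1906. These are log2 differences of 1.62, 1.92 and 1.24, and with Ctsz at 1.01 they make 4 of 9 genes more than 2-fold higher, where 1.77% of all genes were. The other cathepsins differed by 0.80 to 0.99 and Cst3, at 3696 against 3733, by -0.01. Against the female pool at 3 weeks Ctsk was higher by 0.63 and Ctsl by 0.50, and the other 7 genes differed by -0.15 to 0.16.

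**Figure D3:**
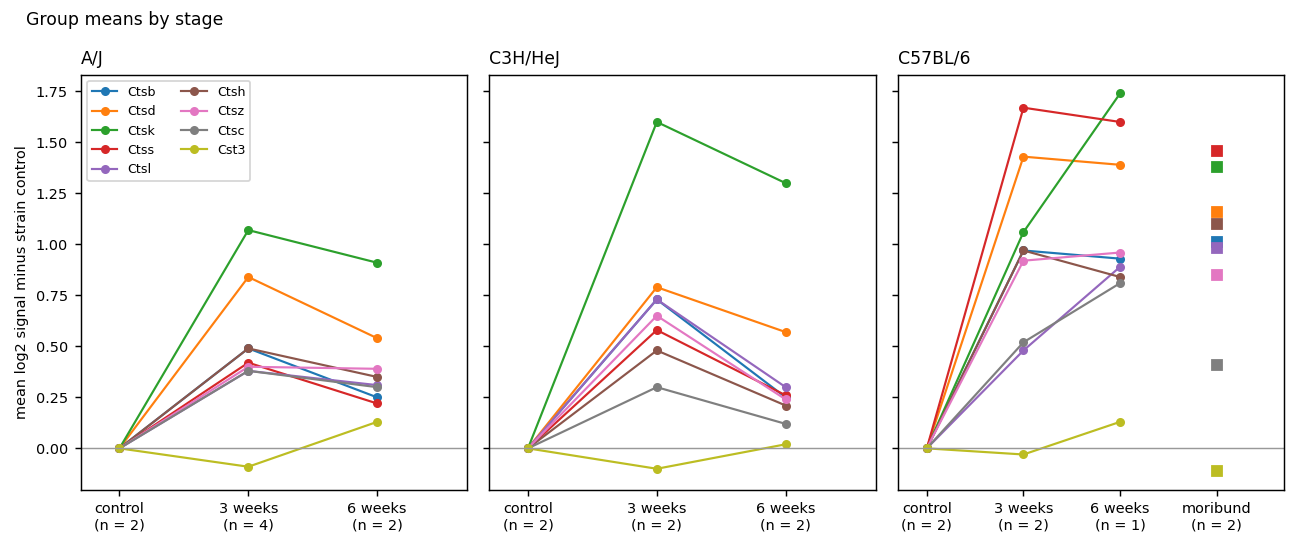
Mean log2 signal of each gene at each stage minus the mean of the strain's control pools (vertical axis), by strain; lines join control, 3 weeks and 6 weeks, and squares are moribund C57BL/6 mice. The C57BL/6 point at 6 weeks is 1 female pool, and the Cst3 line stays near 0 in all 3 strains.

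The strains' responses at 3 weeks were compared by their difference in change. Ctss was the 1 gene of the 9 that passed the test for a larger rise in C57BL/6 than in A/J, by 1.25 (SE 0.24, adjusted p = 0.0162). Of all genes 0.694% were called in that direction in this comparison. The value was 1.09 to 1.49 over 23 alternative fits and passed in 15 of them. Without the A/J male or female control, the C57BL/6 male or female control or the C57BL/6 male 3 week pool its adjusted p was 0.1, 0.0606, 0.0662, 0.0759 or 0.113. Against C3H/HeJ the Ctss rise was larger by 1.09 (SE 0.25, adjusted p = 0.0892), and none of the 9 genes passed (0.165% of all genes were called). At an unadjusted p under 0.05 by limma 3 of the 9 differed, as did 1284 of the 9079 genes.

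Other cathepsins leaned the same way between C57BL/6 and A/J without passing. Ctsd differed in response by 0.59 (SE 0.19, adjusted p = 0.166), Ctsz by 0.52 (SE 0.20, adjusted p = 0.231), Ctsb by 0.48 (SE 0.14, adjusted p = 0.123) and Ctsh by 0.48 (SE 0.19, adjusted p = 0.265). The Ctsk response differed by 0.00 (95% interval -0.63 to 0.64) between C57BL/6 and A/J and by -0.53 (-1.21 to 0.15) between C57BL/6 and C3H/HeJ. Between C3H/HeJ and A/J none of the 9 genes passed (0% of all genes were called, 333 at an unadjusted p under 0.05), and 1 had an unadjusted p under 0.05, Ctsl at 0.35 (95% interval 0.00 to 0.70). These comparisons share control and treated pools.

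Control lungs of the strains were compared as well. In C57BL/6 minus C3H/HeJ none of the 9 genes passed (2.40% of all genes were called). At an unadjusted p under 0.05 by limma 5 of the 9 differed, as did 1290 of the 9079 genes. These 5 were Ctsk at -0.83 (SE 0.23, adjusted p = 0.0672), Ctss at -0.64 (SE 0.18, adjusted p = 0.0716), Ctsd at -0.51 (SE 0.14, adjusted p = 0.0765), Ctsc at -0.48 (SE 0.15, adjusted p = 0.108) and Cst3 at -0.31 (SE 0.12, adjusted p = 0.216). Both C57BL/6 controls were below both C3H/HeJ controls in 7 of the 9 genes, as in 31.4% of all genes. The Ctsz probe set 1417870_x_at was lower in C57BL/6 by a test that passed, at -0.59 (SE 0.14, adjusted p = 0.0329), while the brightest Ctsz probe set differed by -0.25 (SE 0.15, adjusted p = 0.506).

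In C57BL/6 minus A/J controls none of the 9 genes passed (2.76% of all genes called). At an unadjusted p under 0.05 by limma 2 of the 9 differed, as did 1397 of the 9079 genes. These 2 were Ctsk at -0.84 (SE 0.23, adjusted p = 0.0553) and Ctss at -0.47 (SE 0.18, adjusted p = 0.193). Nor did any of the 9 pass between C3H/HeJ and A/J controls (0.925% called). There 1 of the 9 had an unadjusted p under 0.05, Ctsc at 0.36 (SE 0.15), as did 620 of the 9079 genes. C57BL/6 thus started from the lowest Ctsk and Ctss values of the 3 strains and had the highest Ctss values at 3 weeks. Ctsk in C57BL/6 stayed at 329 to 551 in all 5 treated pools, below or within the range of 481 to 1081 of the treated pools of the other strains.

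Dose could be looked at in A/J at 3 weeks only, with 1 pool for each sex and dose and no test. In males 3 of the 9 genes were higher at 100 than at 80 mg/kg, with a median difference of -0.17, and in females 8 were higher at 125 than at 100 mg/kg, with a median of 0.28. Of all genes 49.6% and 47.8% were higher at the higher dose. Ctss was higher at the higher dose in both sexes, by 0.12 and 0.53, and Ctsk differed by -0.26 in males and 0.41 in females. The sex term of the limma fit gave -0.12 to 0.06 for the 9 genes, and none passed (0.0330% of all genes were called). Ctsl alone of the 9 had an unadjusted p under 0.05, as did 273 of the 9079 genes. Sex and dose went together in most treated pools and cannot be told apart there.

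Other genes of the pathway came from lists chosen for this comparison. Of 14 other cathepsins, 3 passed the filter on dim probe sets (Ctsa, Ctse and Ctsf). Ctsa, a serine carboxypeptidase that protects lysosomal glycosidases, rose in C57BL/6 by 1.39 (SE 0.21, adjusted p = 4.4e-04) at 3 weeks and by 1.14 (SE 0.21, adjusted p = 0.0019) in moribund mice. It differed by 0.23 (SE 0.18) in A/J and 0.16 (SE 0.21) in C3H/HeJ at 3 weeks. Ctse, at 0.25 to 0.34, and Ctsf, at -0.23 to 0.03, did not pass in any strain.

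Of 20 genes listed as cathepsin inhibitors or their relatives 9 were tested. At 3 weeks 3 rose in C57BL/6, 2 in C3H/HeJ and 1, Serpina3n, in A/J. Of all genes 6.49%, 1.39% and 0.760% rose. Whether each listed gene inhibits the cathepsins followed here was not tested. Cstb, which encodes cystatin B, an inhibitor inside cells, rose by 0.76 (SE 0.09, adjusted p = 5.6e-05) in C57BL/6 and 0.43 (SE 0.09, adjusted p = 0.0221) in C3H/HeJ, and its response was larger in C57BL/6 than in A/J by 0.54 (SE 0.12, adjusted p = 0.0407). Serpina3n, a secreted serine protease inhibitor of the acute phase, rose in all 3 strains, by 2.84 (SE 0.28, adjusted p = 8.8e-06) in C57BL/6, 1.52 (SE 0.24, adjusted p = 0.00344) in A/J and 1.14 (SE 0.28, adjusted p = 0.0477) in C3H/HeJ. Fetub, a fetuin of the cystatin family, rose in C57BL/6 by 0.65 (SE 0.20, adjusted p = 0.0442). The list's median was 0.39 in C57BL/6, 0.23 in C3H/HeJ and -0.01 in A/J. Cstb and Serpina3n thus rose in C57BL/6 and C3H/HeJ, where Cst3 did not pass.

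Of 22 genes for lysosomal sorting and activation 18 were tested. At 3 weeks 8 rose in C57BL/6, 2 in C3H/HeJ and 1 in A/J, where 6.49%, 1.39% and 0.760% of all genes did. The list's medians were 0.35, 0.17 and 0.10. Lgmn encodes legumain, an asparaginyl endopeptidase that cleaves cathepsin precursors. It rose by 1.84 (SE 0.14, adjusted p = 7.7e-07) in C57BL/6 and 0.66 (SE 0.14, adjusted p = 0.0177) in C3H/HeJ. Its response was larger in C57BL/6 than in A/J by 1.40 (SE 0.18, adjusted p = 0.00156) and than in C3H/HeJ by 1.18 (SE 0.19, adjusted p = 0.021). Its control level in C57BL/6 was lower than in C3H/HeJ, at -0.63 (SE 0.14, adjusted p = 0.0204).

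Grn, which encodes progranulin, a lysosomal and secreted protein that cathepsins cleave into granulins, rose in every strain, by 0.81 (SE 0.09, adjusted p = 1.9e-05) in C57BL/6, 0.46 (SE 0.09, adjusted p = 0.0094) in C3H/HeJ and 0.41 (SE 0.07, adjusted p = 0.0131) in A/J. In C57BL/6 the lysosomal galactosidase Glb1 rose by 0.70 (SE 0.15, adjusted p = 0.00541). Igf2r, the large mannose 6-phosphate receptor, rose there by 0.59 (SE 0.13, adjusted p = 0.00881). The small receptor M6pr, at 0.02 to 0.18, and the regulator Tfeb, at -0.33 to 0.40, did not pass in any strain and are named after their values were seen. In moribund mice 7 of the 18 rose, where 6.41% of all genes did.

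Scaling touched these related genes as it did the cathepsins, with no called difference changing sign. On the deposited scale Serpina3n, Lgmn and Ctsa kept their C57BL/6 calls at 3 weeks, at 2.74, 1.74 and 1.29, while Grn (0.71, adjusted p = 0.0828), Cstb (0.69, adjusted p = 0.166), Glb1, Igf2r and Fetub did not. None of the A/J and C3H/HeJ calls passed there, with Grn at 0.05 and 0.04, and scaling to 1 median kept of them only Serpina3n in A/J (1.49, adjusted p = 0.0132). In moribund mice Ctsa (0.85, adjusted p = 0.121) and in control lungs Lgmn (-0.50, adjusted p = 0.73) did not pass as deposited. The larger Lgmn response of C57BL/6 over A/J passed on every scale (1.70, adjusted p = 0.0455 as deposited), that over C3H/HeJ not as deposited (adjusted p = 0.293), and that of Cstb over A/J on neither other scale.

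**Figure D4:**
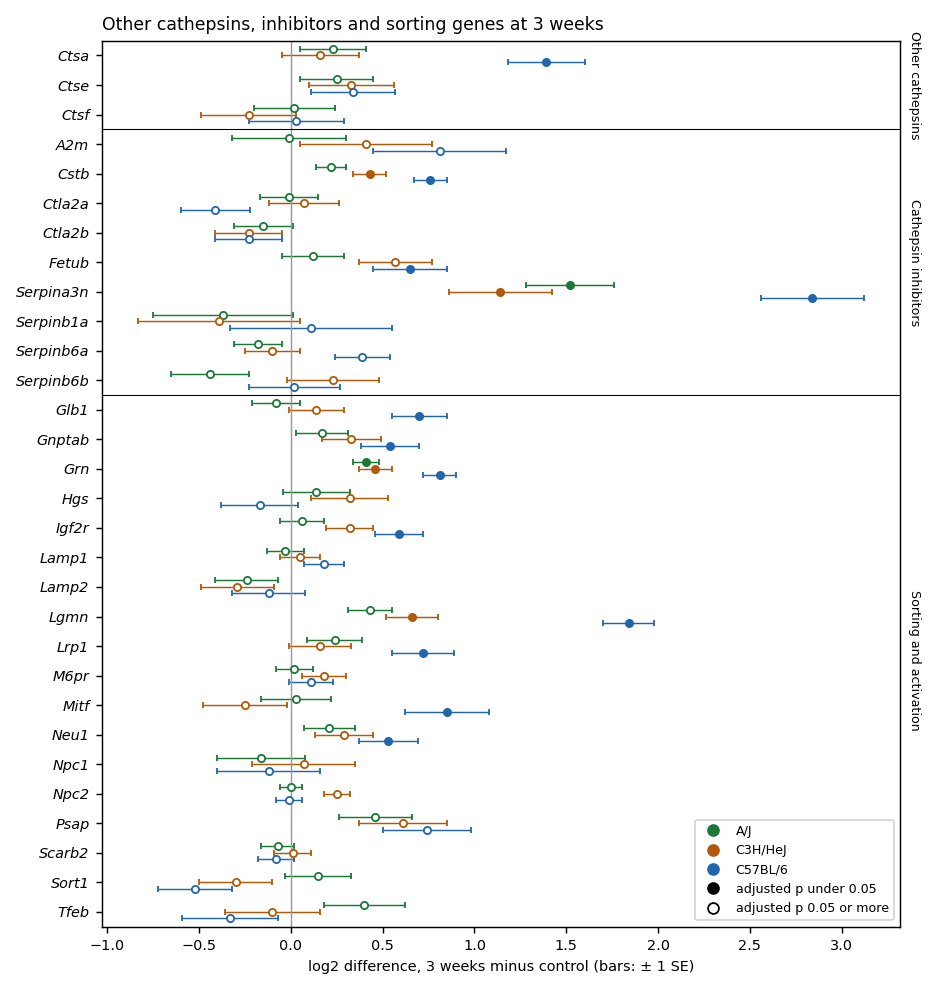
Log2 difference between 3 week and control pools (horizontal axis, bars ± 1 SE of the limma fit) by strain. Shown are the tested genes among other cathepsins, genes listed as cathepsin inhibitors or their relatives, and sorting and activation genes. Filled points mark an adjusted p under 0.05. In C57BL/6 Serpina3n lies at 2.84, Lgmn at 1.84 and Ctsa at 1.39.

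In whole lung, more or fewer cells of a type and more or less RNA per cell cannot be told apart. Of 15 macrophage markers tested, 9 rose and 1 fell in C57BL/6 at 3 weeks (median 1.01), where 6.49% of all genes rose and 5.31% fell. In C3H/HeJ 6 rose and 1 fell (median 0.26), where 1.39% and 0.683% of all genes did. None passed in A/J (median 0.23), where 0.760% of all genes rose. There 6 had an unadjusted p under 0.05 by limma, as did 954 of the 9079 genes. In moribund mice 10 rose, where 6.41% of all genes did. Summed over the 16 macrophage markers on the array, intensity was 12608 to 12626 in C57BL/6 controls against 15315 to 16545 at 3 weeks. It was 15904 to 17457 in moribund mice and 16214 in the pool at 6 weeks. In A/J it was 11641 to 12889 against 12431 to 13301 at 3 weeks, and in C3H/HeJ 13408 to 14380 against 13178 to 15186, with overlap in both. No marker of the list was at 0 on all arrays of any group, and the part of macrophages in the cathepsin differences was not tested.

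Of 7 neutrophil markers tested, at 3 weeks 5 rose in A/J, 2 in C3H/HeJ and 4 in C57BL/6. Of all genes 0.760%, 1.39% and 6.49% rose. Summed over the 9 neutrophil markers on the array, intensity was 1673 to 2164 in C57BL/6 controls against 4597 to 4996 at 3 weeks. In A/J it was 1740 to 1899 in controls against 6314 to 11312. In C3H/HeJ the sum was 1615 to 2801 against 4716 to 4806. Type 2 alveolar markers, of a cell that makes cathepsin H, fell in 4 of 9 genes in C57BL/6 at 3 weeks (median -0.42). None of them fell in A/J or C3H/HeJ, where 0.187% and 0.683% of all genes fell. In each of these 2 strains Sftpd alone of the 9 had an unadjusted p under 0.05 by limma, as did 954 and 1436 of the 9079 genes. Sftpd was higher than control, by 0.27 (SE 0.08) in A/J and 0.28 (SE 0.09) in C3H/HeJ. In C57BL/6 at 3 weeks 4 of 5 endothelial, 3 of 4 airway, 3 of 3 B cell and 5 of 6 heart muscle markers fell. Of 6 fibroblast markers 2 rose and 1 fell. Of all genes 6.49% rose and 5.31% fell there. The heart muscle markers Myh6, Sln and Tnni3 and the airway marker Tppp3 also fell in both A/J and C3H/HeJ. In C3H/HeJ the heart muscle marker Myl7, the endothelial marker Tek and the fibroblast marker Pdgfra fell too. The fibroblast markers Col1a1 and Col1a2 rose in C3H/HeJ, and no other marker of these lists passed in A/J or C3H/HeJ at 3 weeks. The part of these cells in the results was not tested.

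The 10 group means of the 9 genes were set against each other and against all tested genes as a description, since they share arrays and normalization. Ctsb, Ctss and Ctsz followed each other most closely, with Pearson r of 0.97 for Ctsb and Ctsz, 0.96 for Ctss and Ctsz and 0.95 for Ctsb and Ctss. Ctsk stood apart from Ctsh (0.32) and was closest to Ctsc (0.82). Cst3 had r from -0.63 with Ctsh to 0.37 with Ctsk.

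The genes with the most similar group means over the 10 groups were Itgam (0.986), Mmp14 (0.985) and Lgals3bp (0.982) for Ctsb, and Oas1a (0.973), Gpnmb (0.973) and Clec4n (0.958) for Ctsd. Those of Ctss were Csf2rb2 (0.974), Fcgr1 (0.972) and Tnfrsf9 (0.968), and those of Ctsh were Adam8 (0.988), C3ar1 (0.981) and Ccl9 (0.979). Ctsz had Lrg1 (0.974), Ctsb (0.971) and Cdkn1a (0.968), and Ctsl had Itm2a (0.981), Adam15 (0.966) and Lgals9 (0.952). Ctsc was closest to Itgb2 (0.977), Lipa (0.925) and Scpep1 (0.923). The closest for Ctsk reached only 0.914 (Slamf1), with Arf3 (0.911) and Ess2 (0.908), and for Cst3 0.929 (Exoc8), with Fpr2 (0.920) and Ablim1 (0.916). Itgam encodes a myeloid integrin chain, Fcgr1 a high-affinity antibody receptor of macrophages and Itgb2 the shared chain of the leukocyte integrins. The other listed genes are not described here, and the cell types behind these similarities were not tested.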

How the data were processed

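Per the labels, lung RNA came from a Trizol extraction, was pooled, and went through the standard Affymetrix steps. The deposited table gives intensity, linear and at least 0. How the authors summarised probes, corrected background or scaled arrays was not stated in the sources used here. All 21 columns matched a sample, and 64 control probe sets were dropped. Of the 22626 others, 20380 had 1 gene symbol, 691 several and 1555 none, and 20351 of the 20380 matched the gene table.

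Intensities were quantile normalized, raised by 16 and put on the log2 scale. The 33.3% of probe sets with the lowest mean were not tested. A model with a term for each of the 10 groups and for sex was fitted with limma 3.58.1 in R 4.3.3 (lmFit, contrasts.fit, eBayes with trend; 10 residual degrees of freedom, 16.4 after shrinkage). Tests were two-sided. Benjamini-Hochberg adjustment ran over the 15084 probe sets of each of 17 comparisons, and intervals are 95% intervals of the fit. The brightest probe set stood for a gene, which gave 9079 genes for the background shares. Every probe set of the 9 genes is accounted for. Of the related lists, up to 4 genes called in a comparison were named, by smallest p, and for each of the 9 genes the 3 genes with the most similar group means. The members and lists were chosen with earlier results of these data known. The number of arrays, mostly 2 per group, limits the precision. Alternatives covered the scaling, the offset, the filter, the covariates, array weights, the threshold, the arrays fitted, the probe sets used and leaving out each array.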

Additional observations from a re-analysis of the deposited data

Results flagged for a closer look

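The 3 week change of Ctss differed between strains by a test of the difference itself. It was larger in C57BL/6 than in A/J by 1.25 on the log2 scale (SE 0.24, limma adjusted p = 0.0162). The call held in 15 of 23 alternative fits and not on the deposited scale (1.49, adjusted p = 0.164). Both C57BL/6 pools at 3 weeks stood above both controls, at 3844 and 3870 over 1204 and 1192, as in 31.1% of all genes. All 4 A/J pools at 3 weeks stood above both of theirs, as in 10.5%. No pool among the 4 of A/J at 3 weeks stood far enough from the others in any of the 14 probe sets to be named.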

How the results depend on the processing

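Over 421 recomputed values of the 33 single differences that passed, other than those that left out an array, 375 kept the call, 46 lost it and none changed direction. Of 224 that left out 1 array, 192 kept it and 32 lost it. Of 2352 recomputed values that had not passed, 23 did and 108 changed sign without passing.

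On the deposited scale the count of the 9 genes fell from 8 to 4 in C57BL/6, 3 to 0 in A/J and 5 to 0 in C3H/HeJ at 3 weeks, from 8 to 5 in the mean of strains (4 higher and Cst3 lower), from 7 to 4 in moribund mice, and from 1 to 0 for C3H/HeJ at 6 weeks and for the response of C57BL/6 minus A/J. There the share of higher genes among all called fell from 55 to 45.3% in C57BL/6, 80.2 to 25% in A/J, 67 to 36% in C3H/HeJ, 47.1 to 9.93% in the mean and 45.9 to 21.4% in moribund mice. Scaled to 1 median it was 66.7% in C57BL/6 and 39% in C3H/HeJ, and the counts were 1 for C3H/HeJ at 3 weeks, 0 at 6 weeks, 1 for the response of C57BL/6 minus C3H/HeJ and 2 for control C57BL/6 minus C3H/HeJ.

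The C3H/HeJ count at 3 weeks was 2 with the arrays of that strain alone. The A/J count at 3 weeks was 1 without the pools at lower doses. The C3H/HeJ count at 6 weeks was 0 with an offset of 1, with no filter on dim probe sets, with the Gapdh ratio as a covariate, without the lower A/J doses or with the arrays of that strain alone. The response of C57BL/6 minus A/J gave 0 with the Gapdh ratio or without the lower doses and 3 with array weights, and that of C57BL/6 minus C3H/HeJ gave 1 with array weights or at an adjusted p under 0.10. Control C57BL/6 minus A/J gave 1 with an offset of 1, the dimmest 50% left out, no sex term, array weights or an adjusted p under 0.10, and control C57BL/6 minus C3H/HeJ gave 4 with array weights and 3 under 0.10. Beyond the construction of each alternative, the cause was not tested.

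Leaving out 1 array gave counts of 5 to 7 in C57BL/6, 0 to 3 in A/J and 1 to 4 in C3H/HeJ at 3 weeks, 8 in the mean of strains, 7 to 8 in moribund mice, 0 for C3H/HeJ at 6 weeks and 0 to 1 for the response of C57BL/6 minus A/J. The fit on the arrays of the strains compared could not apply to the mean of strains or the sex term. No paired analysis was possible because the labels give no replicate numbers and tie no pool to another. Sex, which the labels do give, was a term of the fit. Ctsb, Ctsd and Cst3 lay among the brightest probe sets, a range in which quantile normalization limits the size of a difference.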
